A study of Salmo salar with 31 samples.

Results

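Skin of Atlantic salmon post-smolts kept in a semi-closed containment system (S-CCS) was compared with skin of post-smolts kept in an open net-pen, both sampled 4 months (4M) post seawater transfer (PST). The comparison took every array whose label gives 4 months in seawater in one of these systems, which is 6 S-CCS fish and 6 net-pen fish, 12 of the 31 fish measured. All 12 came from a single batch of smolts, entered the sea together and were fed commercial feed. The other arrays held 6 fish of each system sampled 1 month PST (1M) and 7 smolts sampled in freshwater before transfer.

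Fish skin is a living mucosal surface, in which an epidermis with mucus cells lies over a dermis of connective tissue and scales, and it keeps water, salts and microbes apart from the body. After transfer to the sea it meets a new osmotic and microbial environment while the fish grows fast. An open net-pen exchanges water freely with the surface layers of the sea. The S-CCS examined here is a floating raceway with pumped deep water and a constant current, so the systems differ in water temperature, salinity and current as well as in the barrier itself. Each system was 1 enclosure at its own site, so system, enclosure and site cannot be told apart. Skin is a mixed tissue, and fewer cells of a type cannot be told apart from less RNA per cell.

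Skin RNA of each fish was labelled with Cy3 and hybridized to 1 array carrying 14841 features, each a different oligonucleotide probe. The share of features well above background was 88.5% to 93.0% per S-CCS 4M array (median 90.4%), against 89.7% to 95.8% per net-pen 4M array (median 93.5%), and saturated spots were absent. Precision is limited by the number of arrays. The S-CCS 4M arrays lay on 3 slides and the net-pen 4M arrays on 3 others, so slide also moved with system. The scanner software had divided the signal by a spatial trend on 1 of 6 S-CCS 4M arrays and on 4 of 6 net-pen 4M arrays. The probe IDs matched 0 of the 65341 genes of the reference table, so features are given by probe ID without gene names, and the tissue could not be checked against skin markers.

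Levels are given as log2-ER, the log2 of a feature's signal divided by its mean over all 31 arrays, after the arrays were scaled to equal mean intensity and corrected by lowess. A log2-ER of 0 is thus the feature's average, and a difference of 1 is a doubling of the signal. All differences are S-CCS minus net-pen. Tests covered the 14172 features whose signal exceeded background clearly in 50% or more of the fish of some group.

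At 4M the skin of the systems differed in both directions and by moderate amounts. With p under 0.05 before adjustment and a log2-ER beyond 0.8 in either direction as criteria, 778 features were called, 5.49% of those tested, with 379 higher in S-CCS (2.67%) and 399 lower (2.82%). With an adjusted p under 0.05 from limma (Benjamini-Hochberg over all features tested), 1123 features differed (7.92%), 501 higher (3.54%) and 622 lower (4.39%). The adjusted number rested on single fish and settings, at 455 without S-CCS fish 6, 559 without net-pen fish 7, 2204 with array weights and 17 with slide as a fixed block, and after normexp background correction 243 features passed both criteria. Both rules took 401 features, 183 higher and 218 lower. Without any model, the S-CCS fish were all above or all below the net-pen fish in 581 of the 14140 features with a value in every fish (4.11%), 279 higher in S-CCS (1.97%) and 302 lower (2.14%).

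Most called differences were small. The median called difference was 1.05 among features higher in S-CCS, with an interquartile range from 0.90 to 1.42, and -1.05 among those lower, from -1.40 to -0.88. Over all features tested the median absolute difference was 0.24 and the median standard error 0.20. Only 40 called features exceeded 2 log2 units upwards in S-CCS and 24 downwards. The outer differences were 4.24 and -3.28.

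**Figure D1:**
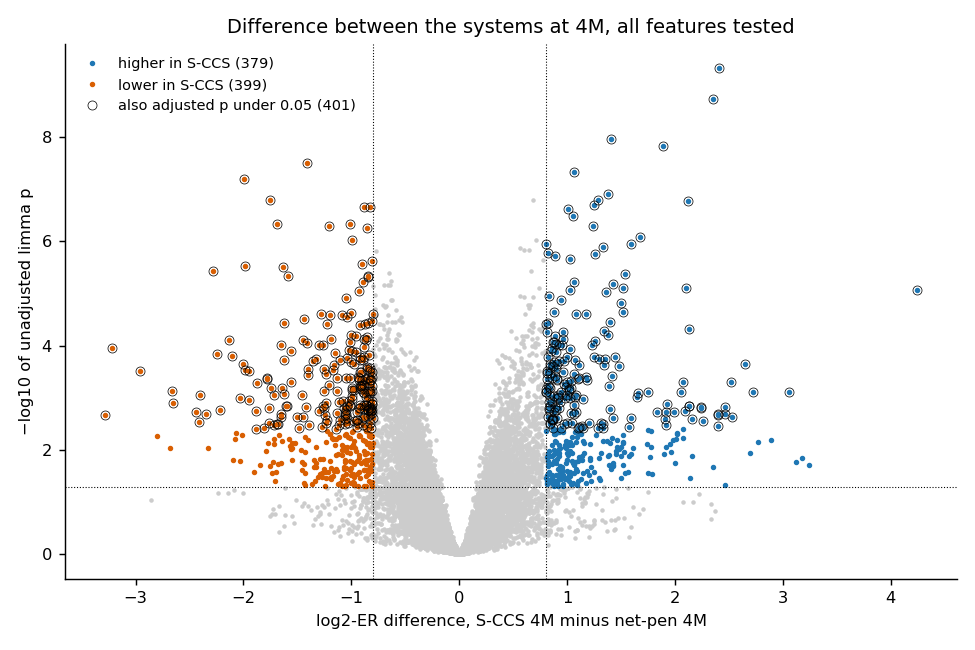
Each point is 1 of 14172 features, placed by its log2-ER difference (S-CCS 4M minus net-pen 4M) and by −log10 of its unadjusted limma p. Dotted lines mark the criteria of p under 0.05 and a log2-ER beyond 0.8, which 379 features passed above and 399 below, and black circles mark the 401 of them that also had an adjusted p under 0.05.

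Calls were also counted by how bright a feature was. The tested features were divided by mean signal into 4 classes of 3543. In the dimmest class 285 features were called (8.04%), 117 higher in S-CCS and 168 lower, whereas in the brightest class 167 were called (4.71%), 102 higher and 65 lower. The share higher in S-CCS was 41.1%, 46.2%, 51.4% and 61.1% from the dimmest to the brightest class. Of the 168 lower calls in the dimmest class, 63 belonged to a set of features, described further on, that was raised on an array of another group, and without that set the class held 117 higher and 105 lower calls. Of the 122 features of that set, 56 had been kept for testing through net-pen 4M alone, so its removal was bound to take out lower calls. Adjusted p under 0.05 went the other way with brightness, with 140 features in the dimmest class (3.95%) and 379 in the brightest (10.7%), where the median standard error was 0.16 against 0.29 in the dimmest. By this rule lower features outnumbered higher ones in every class, with 69 higher and 71 lower in the dimmest and 167 higher and 212 lower in the brightest. Restricted to the 569 called features that were well above background on all 12 arrays, 293 were higher in S-CCS and 276 lower.

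The split into higher and lower also depended on the correction for brightness. Without lowess 963 features were called and 20.7% of them were higher in S-CCS, against 48.7% with lowess, and with an adjusted p under 0.05 from limma the shares were 15.5% and 44.6%. In that setting the median difference over all features was itself -0.16. Once each array was centred on its median instead, 787 features were called and 44.7% were higher in S-CCS. By adjusted p the share was then 53.5% of 996, and 55.3% of the 588 features without overlap. With 75th percentile scaling and no lowess the share was 38.2% of 799 called features and 39.7% of 1008 by adjusted p. With lowess, the share by adjusted p was 52.4% without net-pen fish 7 and between 40.8% and 49.0% without any other 4M fish. The excess of lower features by adjusted p thus varied with setting and fish. No feature given by ID below changed sign in any of these settings.

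**Figure D2:**
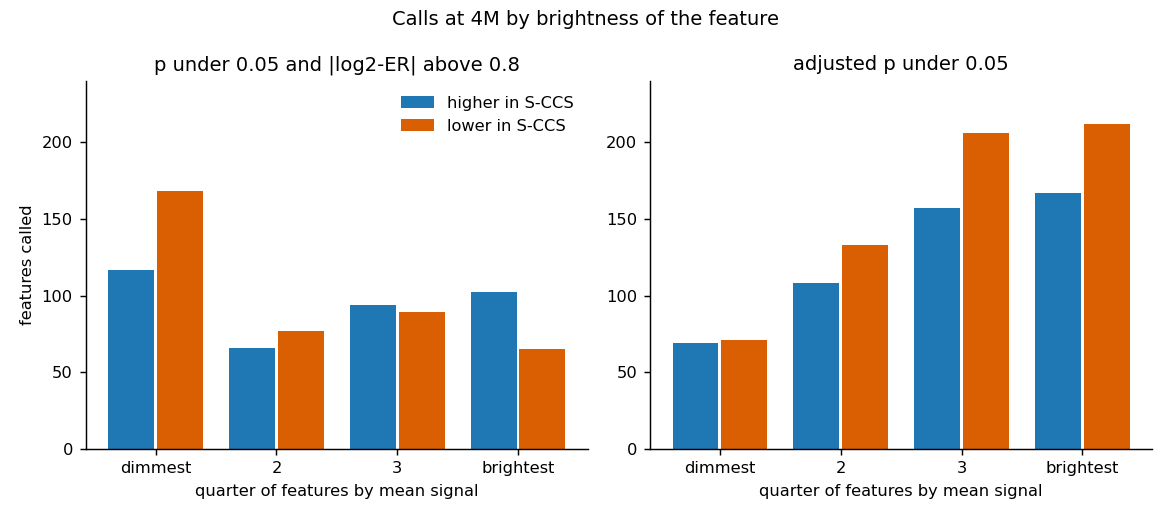
Bars count the features called at 4M in each of 4 classes of 3543 features ordered by mean signal, higher in S-CCS (blue) and lower (orange), by both criteria on the left and by adjusted p on the right. In the dimmest class lower calls (168) outnumbered higher ones (117), and in the brightest class higher calls (102) outnumbered lower ones (65). Without a set of 122 features raised on an array of another group, the dimmest class held 117 higher and 105 lower calls. Of that set 56 features had been kept for testing through net-pen 4M alone, so its removal was bound to take out lower calls. By adjusted p lower calls were the more numerous in every class.

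Features to be given by ID were ranked by the size of the difference among those with an adjusted p under 0.05, no overlap between the fish of the systems and a signal well above background in all 6 fish of a system. This left 210 higher and 207 lower features, of which the 12 outermost on each side were taken. The differences of the 12 higher features reached from 2.12 to 4.24 and those of the 12 lower ones from -3.28 to -1.95. In signal these groups were unlike each other. The median signal of the 12 higher features reached from 43.0 to 71155 in S-CCS fish and from 13.2 to 15069 in net-pen fish, whereas that of the 12 lower ones reached from 2.30 to 365 in S-CCS fish and from 40.5 to 1991 in net-pen fish.

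Ssa#GRASP223672464 had the largest difference among the features so ranked. Its log2-ER was between -0.28 and 1.13 in S-CCS fish (median 0.49), against -5.43 to -1.39 in net-pen fish (median -3.95). The median signal was 16430 in S-CCS fish and 831 in net-pen fish, so the feature was bright in both systems and the groups lay more than 1 log2 unit apart. The S-CCS fish were close to each other, at 0.51 ± 0.56, and the net-pen fish were spread, at -3.73 ± 1.42 (SD, n = 6 each), with net-pen fish 6 the highest of them. The difference was 4.24, an 18.9-fold change (standard error 0.79, adjusted p = 0.0020 from limma). It kept its sign and an adjusted p under 0.05 in all 18 other settings, from 4.11 to 5.70, and without any single fish, from 3.90 to 4.71.

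Relative to smolts this feature moved both ways. The difference from smolts was 2.06 in S-CCS 4M fish (adjusted p = 0.0450 from limma) and -2.18 in net-pen 4M fish (adjusted p = 0.0422 from limma). Both were set against the same 7 smolts. The smolts themselves ranged widely, from -3.42 to 1.05.

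Ssa#CL4Contig1 came next, with a log2-ER between -0.93 and 0.73 in S-CCS fish (median 0.33), against -4.77 to -1.05 in net-pen fish (median -3.0). The groups nearly touched, and net-pen fish 6 was again the highest net-pen fish. The median signal was 4923 in S-CCS fish and 539 in net-pen fish. The difference was 3.05 (standard error 0.81, adjusted p = 0.0220 from limma). The call was lost without S-CCS fish 6, at 2.94 (adjusted p = 0.0553 from limma).

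These features did not move singly. Deviations of the 12 fish from the mean of their own system were compared between the ranked features, and features joined at a Pearson r above 0.9 were put in a set, as a description over 12 arrays. Ssa#GRASP223672464 and Ssa#CL4Contig1 belonged to a set of 4 features, with pairwise r between 0.82 and 0.96 and differences from 2.40 to 4.24. Among the 12 higher features 8 fell into 3 such sets, leaving 7 separate patterns. The smallest p of all features tested belonged to 1 of a pair among them (r = 0.99), whose differences were 2.40 and 2.35 with a smallest adjusted p of 7.0e-06 from limma. Among the 12 lower features 2 formed a set and 11 patterns remained. The files do not say whether members of a set probe the same transcript.

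On the lower side Ssa#S30345407 was outermost. Its log2-ER was between -6.03 and -3.11 in S-CCS fish (median -3.99), against -2.24 to 0.40 in net-pen fish (median -0.85). All S-CCS fish were below all net-pen fish, but fish within each system differed by more than 2 log2 units. The median signal was 79.2 in S-CCS fish and 797 in net-pen fish, and the difference was -3.28 (standard error 0.97, adjusted p = 0.0363 from limma). The call was the least steady of those given here. It was lost in 8 of 12 fits that left out a fish, with differences over the 12 from -3.55 to -2.91 and adjusted p up to 0.0888 from limma, and after normexp background correction the difference was -1.93 (adjusted p = 0.0999 from limma).

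Omy#S18532472 was not well above background in any S-CCS 4M fish and was well above it in all 6 net-pen 4M fish. It passed the filter on dim features through net-pen 4M alone, so it was bound to be higher there. Its log2-ER was between -3.74 and -2.48 in S-CCS fish (median -3.31), against -0.96 to 0.47 in net-pen fish (median 0.13). The signal was only 1.72 to 5.10 in S-CCS fish and 11.0 to 51.0 in net-pen fish. A bound was taken on the scaled signal before lowess, each S-CCS value raised to the lowest signal well above background on its array. By it the feature was at least 4.73-fold lower in S-CCS, which holds for that signal alone. The fitted difference was -3.22 (adjusted p = 0.0086 from limma). After normexp correction, which adds an offset of 50 to every signal, the difference was -0.49 (adjusted p = 0.14 from limma), and in the deposited processed values it was -2.02.

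**Figure D3:**
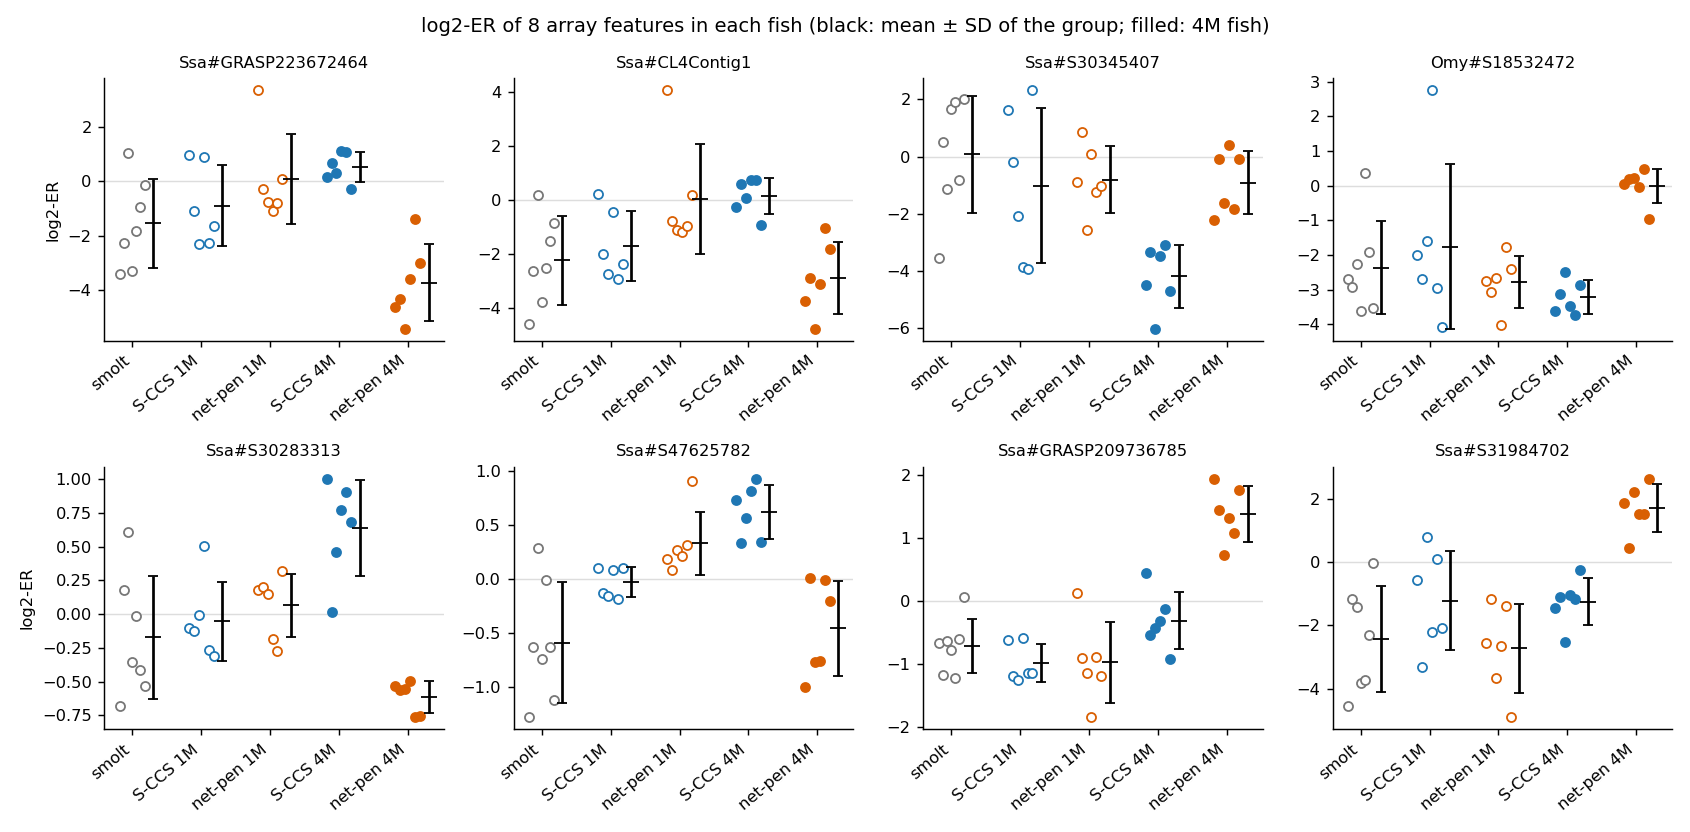
Each panel shows the log2-ER of 1 feature in every fish, with smolts first, then S-CCS and net-pen fish at 1M (open) and at 4M (filled), and bars give the mean ± SD of the group. In all 8 panels the 6 S-CCS 4M fish and the 6 net-pen 4M fish do not overlap, with S-CCS higher in 4 features and lower in 4.

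Of the 168 features of the dimmest class called lower in S-CCS, 63 belonged to a set that was raised on an array of another group. In S-CCS 1M fish 2, 122 features had a signal more than 16 times that of every other S-CCS 1M fish, and 117 of them belonged to the dimmest class. The 16-fold rule used no 4M array and was set after the values of Omy#S18532472 had been seen, but the filter on dim features had used the 4M arrays. Of the 122, 63 were called lower in S-CCS 4M than in net-pen 4M (51.6%, against 2.82% of all features) and 0 were called higher. An adjusted p under 0.05 from limma was found for 17, all lower. These counts are not independent of the 4M arrays. Another 58 features so raised had not passed the filter on dim features. Of the 122, 56 had passed it through net-pen 4M alone and so were bound to be higher there. Among the other 66, 32 were called lower in S-CCS and 0 higher.

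By fish, the median of these 66 features relative to the smolt median on the log2 signal scale was between -0.43 and 0.43 in S-CCS 4M fish (median -0.15), against 0.13 to 1.67 in net-pen 4M fish (median 1.34). In net-pen 4M fish the value was 1.12 or more in 5 of 6, and net-pen fish 7, at 0.13, lay within the range of the S-CCS 4M fish. It was 4.83 in S-CCS 1M fish 2 and 0.98 in smolt fish 3, and no other fish outside net-pen 4M exceeded 0.43. Their signals were low, with a median over the features of 8.48 in the middle of the S-CCS 4M fish and 29.1 in the middle of the net-pen 4M fish. With the scanner software's spatial correction undone, 31 of the 66 were called lower and 0 higher. The 122 features together made up 15.8% of those called lower in S-CCS and 4 of the 12 ranked lower features, Omy#S18532472 among them. Without them, and so without the 56 that net-pen 4M alone had admitted, 715 features were called, 379 higher and 336 lower. The cause of the pattern was not tested.

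**Figure D4:**
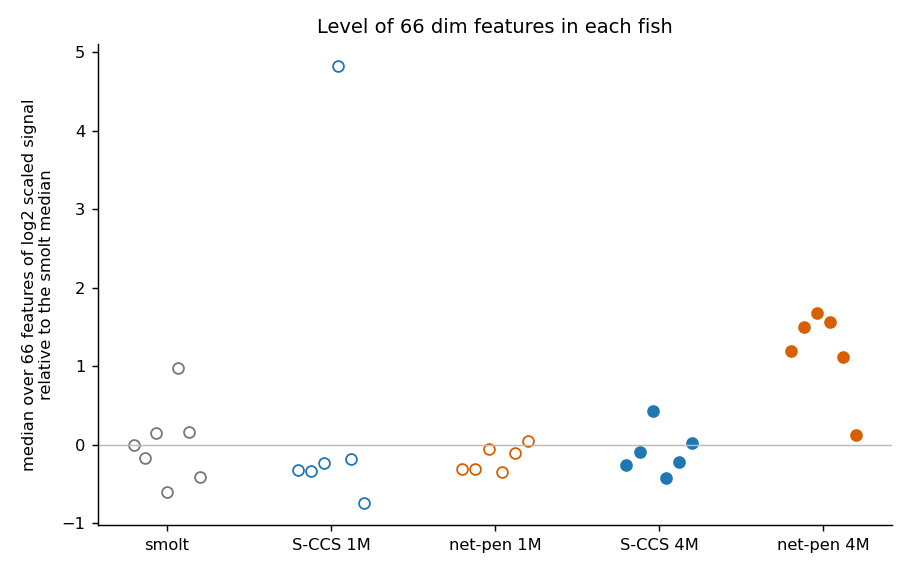
Each point is 1 fish, placed by the median over 66 dim features, those that passed the filter through another group than net-pen 4M, of log2 scaled signal relative to the smolt median. S-CCS 4M fish lie between -0.43 and 0.43, net-pen 4M fish between 0.13 and 1.67, and S-CCS 1M fish 2, on which the features were chosen, at 4.83.

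Slide was examined through the fish that linked the slides. Of the smolts, 4 lay on slides that also carried S-CCS 4M fish and 2 on a slide that also carried net-pen 4M fish. These smolts were set against each other in the direction of the system difference. Over the 778 called features the difference between the smolts ran the same way in 237 (30.5%), with a median of -0.24 when signed by the system difference, which itself had a median of 1.05. Over the 1123 features with an adjusted p under 0.05 the numbers were 305 (27.2%), -0.16 and 0.68. Over all 14172 features the smolt difference had the sign of the system difference in 40.6%. This compared 4 fish with 2 and covered 3 of the 6 slides concerned.

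With slide as a fixed term in the model, which could be fitted over the 25 arrays without net-pen 1M, the adjusted calls had about the same median size and a larger error. Among the 1123 features the signed median was 0.67 with the slide term and 0.68 without it. Their median standard error was 0.30 with the term and 0.17 without it. Of the 1123, 1114 (99.2%) kept their sign. They had been chosen by the fit without slide over the same 4M arrays, so keeping the sign is partly built in. Single features moved more than the median did. Among called features the median was 1.30 with the term and 1.05 without it for those higher in S-CCS, and -0.92 and -1.05 for those lower. Over all features the median absolute difference was 0.34 with the term and 0.24 without it. In this fit 17 features had an adjusted p under 0.05 from limma (0.12%), 14 higher and 3 lower in S-CCS, and 1150 passed both criteria (8.11%), 710 higher and 440 lower, a share of 61.7% higher. Over the same 25 arrays without the slide term the numbers were 1334 and 770. The slide of S-CCS 4M fish 1 and 2 carried no other group, so in the fit with slide they bore on no difference. With slide as a random term the numbers were 1227 and 769, at an estimated correlation within slides of -0.04.

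The adjusted calls shared by both fits numbered 15, of which 13 were higher in S-CCS. The features with the smallest p in the fit with slide were not those with the largest differences. Ssa#S30283313 had a log2-ER between 0.02 and 1.00 in S-CCS fish (median 0.73), against -0.76 to -0.49 in net-pen fish (median -0.56). The net-pen fish were tightly grouped, at -0.61 ± 0.12, and the S-CCS fish wider, at 0.64 ± 0.36 (SD, n = 6 each). Its difference was 1.25 (standard error 0.18, adjusted p = 0.00021 from limma) without slide and 1.84 (standard error 0.28, adjusted p = 0.0193 from limma) with slide.

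Ssa#S47625782, a bright feature, had a log2-ER between 0.34 and 0.93 in S-CCS fish (median 0.65), against -1.0 to 0.01 in net-pen fish (median -0.48). Its median signal was 3901 in S-CCS fish and 2117 in net-pen fish. The difference was 1.08 (standard error 0.22, adjusted p = 0.0040 from limma) without slide and 2.10 (adjusted p = 0.0193 from limma) with slide.

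Ssa#GRASP209736785 was the lower feature with the smallest p in the fit with slide. Its log2-ER was between -0.91 and 0.45 in S-CCS fish (median -0.36), against 0.74 to 1.94 in net-pen fish (median 1.39). Net-pen 4M fish stood apart from smolts, by 2.10 (adjusted p = 1.1e-06 from limma), while S-CCS 4M fish differed from the same smolts by 0.41 (adjusted p = 0.26 from limma). Between the systems the difference was -1.69 without slide (standard error 0.26, adjusted p = 0.00035 from limma) and -2.40 with slide (adjusted p = 0.0193 from limma). These 3 features were chosen for passing the fit with slide, and they kept an adjusted p under 0.05 in the 18 other settings and without any single 4M fish. Of the features ranked by size, 2 of the 12 higher and 0 of the 12 lower had an adjusted p under 0.05 with slide. Ssa#GRASP223672464 was among the 2, at 5.70 (adjusted p = 0.0381 from limma). With slide Ssa#CL4Contig1 was at 4.62 (adjusted p = 0.0561 from limma), Ssa#S30345407 at -2.72 (adjusted p = 0.66 from limma) and Omy#S18532472 at -1.52 (adjusted p = 0.72 from limma).

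**Figure D5:**
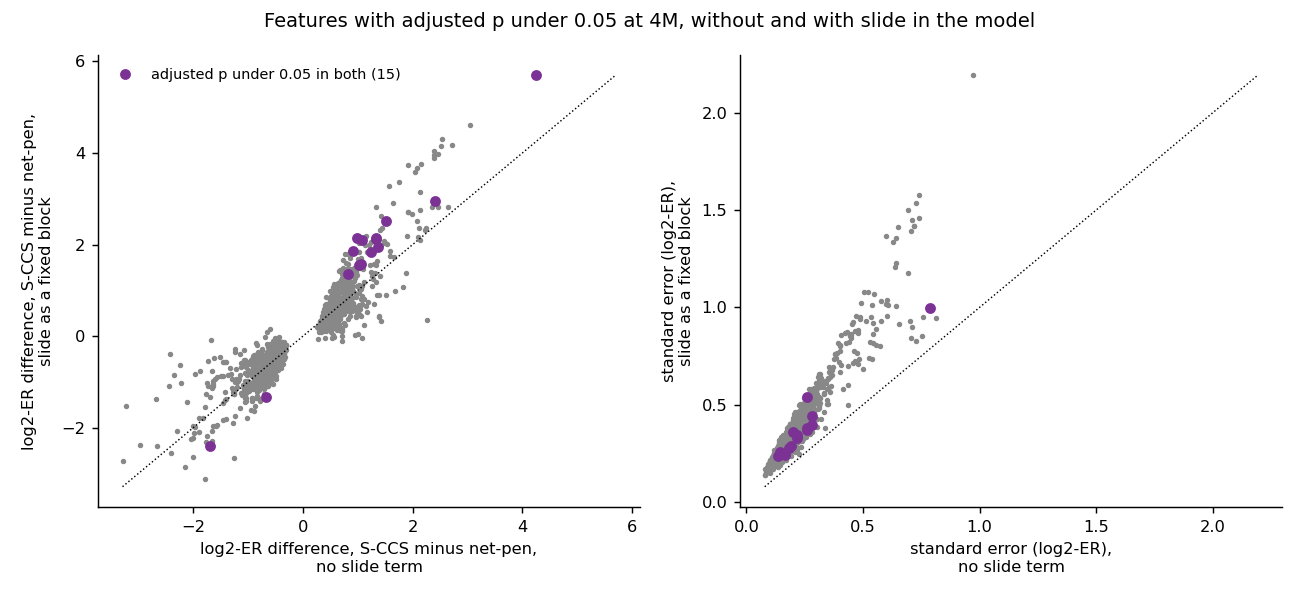
Each point is 1 of the 1123 features with an adjusted p under 0.05, with its S-CCS minus net-pen difference (left) and standard error (right) without a slide term on the horizontal axis and with slide as a fixed block on the vertical axis. Differences scatter around the dotted line of equality, standard errors lie above it, and the 15 purple points had an adjusted p under 0.05 in both fits.

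Whether the difference between the systems was the same at both times was asked by the difference at 4M minus that at 1M. It had an adjusted p under 0.05 from limma in 2291 features (16.2%), 1125 with a positive and 1166 with a negative change. At 1M, 872 features passed both criteria between the systems (6.15%). Of the 778 features called at 4M, 41 were also called at 1M in the same direction and 108 in the opposite one. Signed by the 4M difference, the 1M difference of the 778 features had a median of -0.33. The systems again lay on separate slides at 1M, and S-CCS 1M fish shared slides with net-pen 4M fish, so a change over time and an exchange of slides cannot be told apart here.

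Of the 1123 features with an adjusted p under 0.05 at 4M, 736 also had one for the change from 1M, 292 of them higher in S-CCS at 4M. For the other 387 no change between the times was shown. Of the 1123, 350 (31.2%) had a 1M difference of the same sign, against 37.3% of all features tested. At 1M, 912 of the 14172 features tested had an adjusted p under 0.05 from limma. At both times one was found for 37 features in the same direction and for 103 in the opposite one. Among the 12 higher and 12 lower features ranked by size, 0 had an adjusted p under 0.05 at 1M. At the share over all features few of them would have one, so this 0 does not show that a difference was absent at 1M. The change had an adjusted p under 0.05 in 10 of the higher and 8 of the lower. The 1123 and the ranked features were chosen by the 4M difference, which is part of the change, so passing both is partly built in.

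Changes were ranked only among the 736 features with an adjusted p under 0.05 both at 4M and for the change. Among them the largest positive change belonged to Ssa#GRASP223672464, at 5.22 (standard error 1.11, adjusted p = 0.0035 from limma). Its 1M difference was -0.98 (adjusted p = 0.45 from limma), and net-pen 1M fish were at 0.08 ± 1.66 (SD, n = 6). Net-pen 1M fish 1 was at 3.35 and the others were between -1.10 and 0.10. Without this fish the 1M difference was -0.33 and the change 4.57 (adjusted p = 0.0055 from limma). Ssa#CL4Contig1 followed at 4.79 (adjusted p = 0.0071 from limma). Its 1M difference was -1.74, with net-pen 1M fish 1 at 4.06 and the others between -1.20 and 0.18, and without this fish it was -0.94 and the change 3.99 (adjusted p = 0.0093 from limma).

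On the negative side the rule took Ssa#S31984702 and Omy#S18532472, whose values at or near background leave the size and order of their changes unsettled. At 4M Ssa#S31984702 had a log2-ER between -2.52 and -0.24 in S-CCS fish (median -1.14), against 0.44 to 2.63 in net-pen fish (median 1.70), a difference of -2.96 (standard error 0.72, adjusted p = 0.0139 from limma). At 1M it was between -3.32 and 0.78 in S-CCS fish and between -4.91 and -1.16 in net-pen fish, with 3 of 6 net-pen fish well above background, and the net-pen 4M median was above that of every other group. The fitted change had an adjusted p of 0.0052 from limma. With slide in the model the 4M difference was -2.37 (adjusted p = 0.51 from limma). Omy#S18532472 was well above background in 0 of 6 S-CCS 4M, 2 of 6 S-CCS 1M and 0 of 6 net-pen 1M fish, so its change has no settled size.

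The called features were also set against smolts. Features higher in S-CCS had a median log2-ER relative to smolts of 0.71 in S-CCS 4M fish and -0.37 in net-pen 4M fish. Features lower in S-CCS had medians of -0.37 in S-CCS 4M fish and 0.69 in net-pen 4M fish. Over all features these medians were 0.02 and -0.01, and both systems were compared with the same 7 smolts. Of the 12 ranked lower features, 10 were above the smolt mean in net-pen 4M fish and 6 in S-CCS 4M fish. Of the 12 ranked higher features, 9 were above it in S-CCS 4M fish and 2 in net-pen 4M fish. These counts are not set against all features. The called and the ranked features were chosen by the difference between the systems, so opposite positions relative to the smolts are partly built in.

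On average the net-pen fish deviated more from each other than the S-CCS fish, by a test that was not steady. For each fish the median over features of the absolute deviation from the other 5 fish of its group was taken. It was between 0.18 and 0.28 in S-CCS fish (median 0.21) and between 0.22 and 0.33 in net-pen fish (median 0.28), and the ranges overlapped. The mean was 0.224 ± 0.038 in S-CCS and 0.280 ± 0.043 in net-pen (SD, n = 6 each), a difference of -0.056. A two-sided permutation test over 924 arrangements of the 12 values gave p = 0.0390, where the smallest possible p was 0.0022. The deviations were not computed anew for each arrangement. The 6 values of a group also depend on each other, so this p is only approximate. The p stayed under 0.05 in all 10 other processing settings but not in 7 of the 12 repeats that left out a fish, where it reached 0.13. More net-pen than S-CCS arrays had been corrected for a spatial trend, and without that correction the difference was -0.052 (p = 0.0368 in the same permutation test).

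Across all features the systems separated on the leading axis of variation between the 12 fish. The first principal component held 21.5% of the variance, with S-CCS fish between 15.5 and 52.7 and net-pen fish between -49.5 and 0.14. On the second, with 18.8%, the systems overlapped, S-CCS fish between -32.0 and 35.5 and net-pen fish between -44.7 and 37.7. The correlation of log2-ER between 2 arrays, over features and as a description, had a median of 0.12 over the 36 pairs of an S-CCS and a net-pen fish. Within S-CCS it was 0.36 for the 3 pairs on one slide and 0.35 for the 12 pairs on different slides, and within net-pen 0.40 and 0.27.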

How the data were processed

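Total RNA from skin was labelled with Cy3 and hybridized to a single-colour salmon oligonucleotide array, 1 fish per array. The authors deposited the table of each array from the Agilent Feature Extraction software, whose processed signal is an intensity after background subtraction. They also deposited a table of processed values, a scaled intensity that served as an alternative. Following the methods, processed signals were scaled to equal mean intensity, divided by the mean of the feature over the 31 arrays, log2 transformed and corrected by lowess. The lowess span (0.3, against mean log2 intensity) and the signal used are not given in the sources used here.

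Control spots and 145 flagged values were left out, as were 669 features that were too dim. Groups came from the sample labels. A linear model of 5 groups was fitted with limma 3.58.1 in R 4.3.3. Descriptions and figures used Python 3.11.15, numpy 2.4.6, pandas 2.3.3 and matplotlib 3.10.9. The steps were tested on simulated data. P-values measure the spread between fish of 1 enclosure per system.

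Up to 12 features in each direction were ranked by size among adjusted calls without overlap, up to 10 by p in the fit with slide and 3 in each direction by the change from 1M. Of each, the leading 2 in a direction are given by ID, or 1 where the list held no more. Gene lists could not be applied without gene names. The comparison, lists and rules were chosen with earlier results of these data known. Alternatives covered scaling, background, lowess, filters, spatial correction, array weights, slide, fish number and single fish. The 75th percentile scaling without lowess, the centring on the array median, the fit without net-pen 1M, the fits without S-CCS 1M fish 2 and without net-pen 1M fish 1, and the set of 122 dim features and its 66 members, were chosen after the data were seen.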

Additional observations from a re-analysis of the deposited data

Results flagged for a closer look

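Among 30 groups of 6 values examined for a single fish far from the rest, 4 had one, where chance gives about 1 in 20. All but the last given here concern the same fish, in 1 feature, in a set that holds it and in part of that set. They are not separate cases, so the number cannot be set against chance. Net-pen 4M fish 7 was at -0.96 for Omy#S18532472 on the log2-ER scale, and the other net-pen 4M fish were between -0.03 and 0.47. The same fish had the lowest median of the 122 dim features among net-pen 4M fish, 0.13, with the others between 1.29 and 1.90, and the lowest over the 66 of them that passed the filter through another group, 0.13, with the others between 1.12 and 1.67. S-CCS 4M fish 12 was at 52.7 on the first principal component, and the other S-CCS 4M fish were between 15.5 and 24.6.

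The difference between the systems changed between the times in 2291 features by the test of the change itself. Among the features given by ID, this test passed an adjusted p under 0.05 from limma for Ssa#GRASP223672464 (5.22), Ssa#CL4Contig1 (4.79), Ssa#S30283313 (1.37), Ssa#S47625782 (1.44), Omy#S18532472 (-4.24), Ssa#GRASP209736785 (-1.68) and Ssa#S31984702 (-4.46), all as the 4M difference minus the 1M difference in log2-ER. The sizes for Omy#S18532472, well above background in 0 of 6 S-CCS 4M and 0 of 6 net-pen 1M fish, and Ssa#S31984702, in 3 of 6 net-pen 1M fish, rest on values at or near background and have no settled size or order. Without S-CCS 1M fish 2, in which Omy#S18532472 was at 2.75, the change was -3.33 for Omy#S18532472 and -4.66 for Ssa#S31984702. For Ssa#S30345407 the change was -3.06 (adjusted p = 0.12 from limma). The systems lay on separate slides at both times, so a change over time and an exchange of slides cannot be told apart. The features given by ID were chosen with the 4M difference, which is part of the change.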

How the results depend on the processing

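The features given by ID and the others ranked, 32 in all, kept their sign in all 950 values from other settings. An adjusted p under 0.05 was lost in 93 of these, 22 of them with slide as a fixed block. The features ranked by p in the fit with slide had been chosen for passing it and could not lose it there. Every other feature of the 32 did. Of the calls by both criteria, 396 of 778 remained in all 12 fits that left out a 4M fish and 202 in all 8 processing settings, and of the adjusted calls 391 and 503 of 1123 did. The number passing both criteria was 243 after normexp. The adjusted number was 1773 with the deposited values, 1755 without spatial correction, 2204 with array weights and 17 with slide as a fixed block. The number without overlap was 894 with the deposited values and 987 without spatial correction, and its share higher in S-CCS was 16.0% without lowess, against 48.0%. For the change from 1M that setting gave 3366 features, 11.2% of them positive, against 49.1%. The causes were not tested.

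Leaving out 1 fish at a time, the number passing both criteria was between 675 and 866 and the adjusted number between 455 (without S-CCS fish 6) and 1337 (without net-pen fish 2). It was 559 without net-pen fish 7, 672 without S-CCS fish 12, 722 without S-CCS fish 2 and 723 without S-CCS fish 1. The number without overlap was between 642 and 935, 928 without net-pen fish 12 and 935 without net-pen fish 2, and a group of 5 fish overlaps less easily than one of 6. The number for the change was between 1688 and 2705. The difference in spread was between -0.079 and -0.042. Its approximate permutation p was above 0.05 without S-CCS fish 2, 6, 7 or 11 or net-pen fish 2, 6 or 12.

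Fish numbers recur in the labels of both systems. The deviations of same-numbered fish correlated from -0.09 to 0.34 over 6 pairs. Fish of unlike number were not compared, so these values cannot decide whether the numbers paired the fish. With fish number as a replicate block 766 features passed both criteria, 1050 had an adjusted p under 0.05 from limma and 2120 changed from 1M. Signal over background limits the dim features, of which 52 called ones were not well above background on any S-CCS 4M array. Some of the 52 were not well above it on any net-pen 4M array either. Another 2 were well above it on some S-CCS 4M array but on no net-pen 4M array.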
